A study of Mus musculus with 18 samples.

Results

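The genes described here encode subunits of the mitochondrial respiratory chain. They were chosen by symbol alone: probe sets annotated to exactly 1 symbol beginning with Nduf, Uqcr, Cox4, Cox5, Cox6, Cox7, Cox8 or Atp5, or equal to Sdha, Sdhb, Sdhc, Sdhd or Cyc1, without the Ndufaf assembly factors and pseudogenes. The rule gave 83 genes of the 19938 that the annotation names by 1 symbol, namely 36 named as complex I, 4 of complex II, 9 of complex III, 17 of complex IV and 17 of complex V. The probe set with the highest mean stood for a gene that had several. Of the 83 genes, 82 were bright enough to be tested among 13387 genes in all. The exception was Cox7b2, a complex IV isoform gene that lay under the 40th percentile on all 18 arrays.

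Gene expression had been measured on 18 Affymetrix arrays of cells sorted from mouse bone marrow, 9 of monocytes sorted as Ly-6C(hi) and 9 of neutrophils. The controls were Zeb2(fl/fl) mice on the C57BL/6 background, which carry floxed alleles of the transcriptional repressor gene Zeb2 and no Cre. The other genotype was Zeb2(fl/fl);Mx1-Cre(tg), in which a recombinase under an interferon-inducible promoter, not restricted to these cells, can delete the floxed alleles. Each cell type had 4 controls and 4 samples labelled Zeb2-deficient from mice given poly(I:C), a double-stranded RNA that induces interferon, as 2 intraperitoneal injections of 150 ug within 48 h, with marrow taken 3 weeks after them, and 1 sample from an untreated Zeb2(fl/fl) mouse. Because no control carried Cre, an effect of the recombinase itself and an effect of losing Zeb2 cannot be told apart. Ages are not given in the labels. The labels also do not say whether the samples of a group came from separate mice, so the p-values measure only the spread between these samples.

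The respiratory chain passes electrons from NADH and succinate to oxygen and pumps protons across the inner mitochondrial membrane. Complex I oxidises NADH, complex II oxidises succinate as part of the TCA cycle, complex III passes electrons from ubiquinol to cytochrome c, and complex IV reduces oxygen. Complex V, the ATP synthase, lets the protons flow back through a ring of c subunits and turns the rotation into ATP. Neutrophils are known for few mitochondria and for drawing most of their ATP from glycolysis, whereas monocytes rely more on respiration.

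Genes of the chain are encoded on many chromosomes, and NRF1 and GABPA are known as transcription factors that bind near many of their starts. RefSeq promoter windows (GRCm38.p6, 250 bases before to 50 after a start) were found for 67 of the 83 genes. The NRF1 letters were GCGCA, any base (N) and GCGC, searched on both strands. They stood in 16 of the 67 (23.9%), against 10.2% of 10598 tested genes with a window and 5.19% of all 27025 genes with one. The letters CCGGAAG, the core of GABPA sites on either strand, stood in 17 of 67 (25.4%, against 18.3% of tested genes), and AAGATGGCG, a YY1 core on either strand, in 7 (10.4%, against 3.24%). The last 2 motifs share the letters AAG and can overlap, and a match is a stretch of letters, not a shown binding site. The 250 bases before the start are printed for a gene of complexes I, II, IV and V that holds the NRF1 letters, all on the minus strand of GRCm38.p6 and read 5′ to 3′ from RefSeq, with NRF1 and CCGGAAG letters (or their reverse complement) in capitals. They are Ndufa5 at chr6:24527691-24527940, Sdha at chr13:74350241-74350490, Cox6a1 at chr5:115348959-115349208 and Atp5g2 at chr15:102671048-102671297.
Ndufa5: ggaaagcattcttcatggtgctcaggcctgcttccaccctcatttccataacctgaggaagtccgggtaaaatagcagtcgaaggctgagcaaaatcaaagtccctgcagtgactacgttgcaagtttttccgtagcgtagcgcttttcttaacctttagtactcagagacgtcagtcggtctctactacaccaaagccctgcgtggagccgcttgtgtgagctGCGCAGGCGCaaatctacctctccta
Sdha: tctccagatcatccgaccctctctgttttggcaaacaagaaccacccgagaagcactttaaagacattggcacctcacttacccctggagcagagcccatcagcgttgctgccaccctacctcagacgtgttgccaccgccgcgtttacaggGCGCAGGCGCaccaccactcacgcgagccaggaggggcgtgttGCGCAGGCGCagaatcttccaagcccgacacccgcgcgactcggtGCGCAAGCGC
Cox6a1: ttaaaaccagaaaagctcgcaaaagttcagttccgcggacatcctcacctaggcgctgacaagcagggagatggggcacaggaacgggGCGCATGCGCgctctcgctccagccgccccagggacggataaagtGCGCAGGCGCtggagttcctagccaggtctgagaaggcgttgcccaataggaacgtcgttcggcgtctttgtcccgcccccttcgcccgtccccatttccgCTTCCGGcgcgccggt
Atp5g2: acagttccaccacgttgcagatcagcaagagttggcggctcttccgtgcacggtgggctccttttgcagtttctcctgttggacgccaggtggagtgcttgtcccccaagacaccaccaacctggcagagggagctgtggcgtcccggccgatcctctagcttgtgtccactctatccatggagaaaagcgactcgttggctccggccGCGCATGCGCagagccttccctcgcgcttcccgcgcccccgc
The Sdha stretch held the NRF1 letters 3 times, and the Cox6a1 stretch held them 2 times with 1 reverse complement of CCGGAAG nearer the start. Among tested subunit genes with a window, the 16 with the NRF1 letters had a median difference between control monocytes and control neutrophils of 0.68 on the log2 scale (range -0.15 to 2.56). The 50 without them had a median of 0.59 (range -0.47 to 2.01). Atp5g2, printed above, had the highest difference of all the subunit genes, while Cox6a1 differed by 0.040, so genes that carry the letters ran from near 0 to the top of the range.

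The values are log2 intensities. Array medians ran from 4.81 to 4.92, and the 40th percentile of an array from 4.28 to 4.50. The sort was visible in the markers. All 7 Ly-6C(hi) monocyte markers on the array were higher in control monocytes and all 8 neutrophil markers were higher in control neutrophils. Of the T and NK cell markers 4 of 5, and of the B cell markers 3 of 5, lay at or under the 40th percentile on every monocyte array. On control and on deficient-labelled neutrophil arrays this held for 2 of 5 T and NK cell markers and 3 of 5 B cell markers, and Cd3d averaged 6.85 in control and 7.12 in deficient-labelled neutrophils against 3.71 in control monocytes. In control monocytes 4 of 5 promyelocyte markers were higher than in control neutrophils (median 2.80), and 2 of 4 megakaryocyte and 2 of 4 tested erythroid markers were lower. Their part in the subunit differences was not tested. The Zeb2 probe set was not lower in the neutrophils labelled deficient (7.10 to 8.25) than in their controls (6.86 to 7.54), and in monocytes it read 8.74 to 9.84 against 9.86 to 10.08, so directions by genotype refer to the label. Control arrays 1 and 2 with deficient arrays 1 and 2 formed an array set (A), and control arrays 4 and 5 with deficient arrays 3 and 4 another (B). The sets follow the sample numbers and were seen in the values, where arrays of a set deviate from their group means together. The labels name no batch.

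The first comparison set control monocytes against control neutrophils. Most subunit genes were higher in monocytes: 54 of 82 passed the test in that direction and 3 in the other, with all 5 complexes represented among the former. The background was high, since 58.6% of all tested genes passed, but it was evenly split, 29.9% higher and 28.7% lower in monocytes. The median difference over the 82 genes was 0.59, against -0.077 over all tested genes, and 22 of them (26.8%) differed by at least 1 log2 unit in favour of monocytes, against 13.5% of all genes. The 4 control monocyte arrays all lay above the 4 control neutrophil arrays for 52 genes and all below for 3, where 28.6% and 27.6% of all genes did so. A gene passed the test where limma's p, adjusted by Benjamini-Hochberg over all 13387 genes, was under 0.05. In sorted bulk samples, fewer cells of a type and less RNA per cell cannot be told apart.

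**Figure D1:**
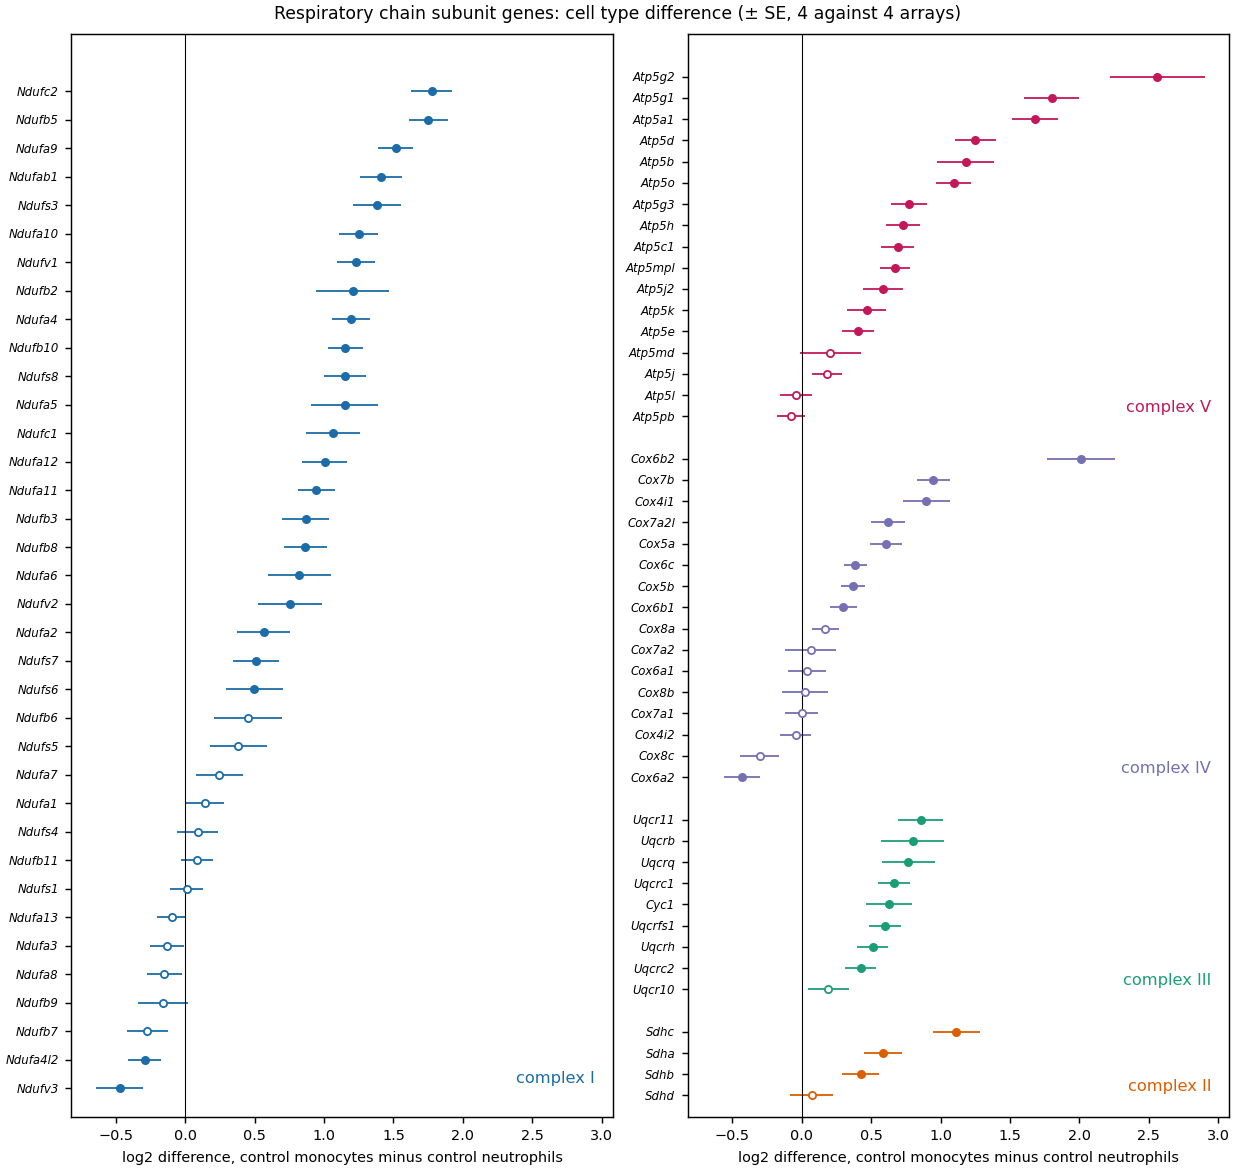
Log2 difference between control monocytes and control neutrophils (horizontal axis) for each of the 82 tested subunit genes, by complex; points are fitted differences from 4 against 4 arrays, bars are standard errors, and filled points passed the test. Atp5g2 lies farthest to the right at 2.56 and Ndufv3 farthest to the left at -0.47.

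These counts depend on scale. Centring each array on the median of its tested genes shifted every control difference down by 0.26. The median became 0.33 for the subunit genes and -0.34 for all genes. The split of passing subunit genes became 42 higher and 12 lower of 82, while 73.4% of all tested genes passed. After quantile normalization between arrays it was 44 higher and 6 lower (median 0.45, all genes -0.13), with 59.3% of all tested genes passing. The median within array set A was 0.44 and within set B 0.73. The title number as a block left 56 higher and 3 lower, with 60.8% of all tested genes passing.

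In complex I, 22 of 36 genes were higher in control monocytes and 2 were lower, with a median of 0.79. Of the 6 core subunits, which hold the flavin and iron-sulfur centres that carry electrons, 5 were higher (Ndufs3, Ndufs7, Ndufs8, Ndufv1 and Ndufv2, median of the 6 at 0.95), while Ndufs1 differed by 0.0093. Of 28 accessory subunits, which surround the core and are needed to assemble or hold it, 16 were higher and 1 was lower. Among these calls Ndufs6 was lost under 9 alternatives, including without control neutrophil 1, 2 or 5 or control monocyte 4 or 5, Ndufs7 under 4, including without control neutrophil 2, and Ndufa2 under 3, including without control monocyte 5. Ndufv2 was lost with arrays centred (adjusted p = 0.0645).

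Ndufc2, an accessory subunit of the membrane arm, read 9.72, 9.97, 9.67 and 9.76 in control monocytes 1, 2, 4 and 5, 9.40, 9.62, 9.54 and 10.01 in deficient-labelled monocytes 1 to 4, and 9.90 in the untreated sample. Its neutrophil values were 8.10, 7.86, 8.09 and 7.96 in controls, 7.39, 7.76, 7.63 and 8.10 in samples labelled deficient and 7.93 in the untreated sample. Every monocyte array lay above every neutrophil array, and the control difference was 1.78 ± 0.15 (SE, 3.43-fold, adjusted p = 1.13e-08). Ndufb5, another membrane arm accessory subunit, read 8.56, 8.59, 8.79 and 8.72 in control monocytes against 7.32, 6.93, 6.72 and 6.69 in control neutrophils. The samples labelled deficient read 8.27, 8.48, 8.57 and 8.83 against 7.01, 7.05, 7.16 and 7.18, and the untreated ones 8.62 against 6.73. Here too the cell types did not overlap, and the control difference of 1.75 ± 0.14 (SE, 3.37-fold, adjusted p = 8e-09) had the smallest p of all the subunit genes. Ndufa9, an accessory subunit at the junction of the arms, separated the cell types in the same way. It read 7.93, 8.02, 7.90 and 7.74 in control, 7.85, 7.95, 7.86 and 7.81 in deficient-labelled and 7.79 in untreated monocytes. In neutrophils the values were 6.58, 6.49, 6.42 and 6.04 in controls, 6.05, 6.35, 5.94 and 6.13 in samples labelled deficient and 6.15 in the untreated sample, a control difference of 1.52 ± 0.13 (SE, 2.86-fold, adjusted p = 1.07e-08).

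The subunits that went the other way were Ndufv3 and Ndufa4l2. Ndufv3, an accessory subunit of the NADH-oxidising module, read 7.87, 7.75, 8.08 and 8.25 in control monocytes and 8.48, 8.45, 8.45 and 8.47 in control neutrophils, with no overlap and a difference of -0.47 ± 0.17 (SE, 1.39-fold, adjusted p = 0.0238). Its call was lost in set B alone and without control monocyte 1 or 2 (adjusted p up to 0.0829). Ndufa4 and Ndufa4l2 are named after complex I, but the Ndufa4 protein is now counted as a subunit of complex IV, and Ndufa4l2 is a related gene known as a target of hypoxia. Ndufa4 read 10.38, 10.44, 10.60 and 10.58 in control, 10.44, 10.58, 10.71 and 10.82 in deficient-labelled and 10.55 in untreated monocytes. Its neutrophil values were 9.51, 9.33, 8.99 and 9.39 in controls, 9.40, 9.05, 8.78 and 9.07 in samples labelled deficient and 9.22 in the untreated sample, all lower than every monocyte value, and the control difference was 1.195 ± 0.14 (SE, 2.29-fold, adjusted p = 5.3e-07). Ndufa4l2 stood near the 40th percentile, above it on only 6 of 18 arrays, at 4.28, 3.90, 4.07 and 4.09 in control, 4.05, 4.08, 4.17 and 4.28 in deficient-labelled and 4.21 in untreated monocytes. It read 4.51, 4.24, 4.19 and 4.56 in control, 4.89, 4.72, 4.43 and 4.58 in deficient-labelled and 4.64 in untreated neutrophils. The control groups overlapped, and its difference of -0.29 ± 0.12 (SE, 1.22-fold, adjusted p = 0.0437) compares values of which most lie under that percentile. Its call was lost under 10 of 20 alternatives, among them no filter, quantile normalization, each array set alone, and leaving out control monocyte 2, 4 or 5 or control neutrophil 1 or 5 (adjusted p up to 0.2).

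In complex II, 3 of 4 genes were higher in control monocytes (median 0.50). Sdha, the flavoprotein that oxidises succinate, read 8.49, 8.65, 8.63 and 8.40 in control, 8.45, 8.58, 8.29 and 8.11 in deficient-labelled and 8.51 in untreated monocytes. In neutrophils it read 8.05, 8.19, 7.73 and 7.87 in controls, 7.92, 8.12, 7.68 and 7.69 in samples labelled deficient and 7.99 in the untreated sample. The control groups did not overlap, and differed by 0.58 ± 0.14 (SE, 1.5-fold, adjusted p = 0.00136). Sdhb, the iron-sulfur subunit, differed by 0.42 ± 0.14 (SE, 1.34-fold, adjusted p = 0.0123), a call lost with arrays centred, in set A and without control neutrophil 5 (adjusted p up to 0.356). The membrane anchors Sdhc and Sdhd, which bind ubiquinone, gave unlike values in this comparison: Sdhc was higher in monocytes by 1.11 ± 0.17 (SE, 2.16-fold, adjusted p = 1.78e-05) and Sdhd differed by 0.070 ± 0.15 (SE, adjusted p = 0.709). The difference between Sdhc and Sdhd was not tested. Sdhc read 8.77, 8.65, 8.39 and 8.34 in control monocytes and 7.28, 7.83, 7.18 and 7.41 in control neutrophils, all of the former above all of the latter. Sdhd read 6.88, 7.45, 7.02 and 7.09 against 7.22, 7.11, 6.82 and 7.005, with overlap.

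In complex III, 8 of 9 genes were higher in control monocytes, the largest share of any complex, with a median of 0.63. Both subunits that carry electrons passed, cytochrome c1 (Cyc1) at 0.63 and the Rieske protein (Uqcrfs1) at 0.60, as did both core proteins, Uqcrc1 (0.66) and Uqcrc2 (0.42). Cyc1 lost its call in set A, and Uqcrc2 in set A and with arrays centred. Of 5 small subunits only Uqcr10 did not pass, at 0.19 ± 0.15 (SE, adjusted p = 0.277), and Uqcrh lost its call after quantile normalization (0.0101, adjusted p = 0.943). Uqcr11, a small subunit of the membrane domain, read 7.92, 8.09, 8.01 and 8.32 in control, 7.77, 8.09, 7.89 and 8.17 in deficient-labelled and 8.42 in untreated monocytes. Its neutrophil values were 7.40, 7.54, 6.87 and 7.10 in controls, 6.97, 6.98, 6.55 and 7.13 in samples labelled deficient and 7.11 in the untreated sample. No monocyte array fell within the neutrophil range, and the control difference was 0.86 ± 0.16 (SE, 1.81-fold, adjusted p = 0.000171). Uqcrb, a ubiquinone-binding small subunit, read 8.29, 8.57, 8.61 and 8.86 in control, 8.35, 8.26, 8.95 and 9.20 in deficient-labelled and 8.30 in untreated monocytes. In neutrophils it read 7.74, 7.68, 7.77 and 7.93 in controls, 7.18, 7.63, 8.33 and 7.96 in samples labelled deficient and 7.27 in the untreated sample. The controls did not overlap and differed by 0.80 ± 0.23 (SE, 1.74-fold, adjusted p = 0.00571), but deficient-labelled neutrophil 3 reached into the monocyte range.

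Complex IV had the lowest median of the 5 complexes, 0.24, with 8 of 16 tested genes higher in control monocytes and 1 lower. Of its 9 widely expressed subunits 6 were higher (Cox4i1, Cox5a, Cox5b, Cox6b1, Cox6c and Cox7b) and none was lower. Of the 6 tested isoform genes known from muscle, lung or testis, Cox6b2 was higher and Cox6a2 lower. Cox7a2l, counted with neither kind, was higher by 0.62 in control monocytes. Cox6b1 and Cox6c turned to values under 0 after quantile normalization (-0.12 and -0.099), so their direction depends on scale.

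Cox7b, a small subunit, read 10.51, 10.60, 10.65 and 10.77 in control, 10.42, 10.62, 10.83 and 10.80 in deficient-labelled and 10.71 in untreated monocytes. Its neutrophil values were 9.78, 9.68, 9.68 and 9.60 in controls, 9.36, 9.42, 9.81 and 9.81 in samples labelled deficient and 9.38 in the untreated sample, all lower than every monocyte value. The control difference was 0.95 ± 0.12 (SE, 1.93-fold, adjusted p = 2.23e-06). Cox4i1, the common form of subunit 4, was also higher in monocytes, with a narrower gap between the cell types. It read 10.46, 10.38, 10.35 and 10.41 in control, 10.14, 10.38, 10.20 and 9.90 in deficient-labelled and 10.50 in untreated monocytes. In neutrophils it read 9.71, 9.76, 9.20 and 9.34 in controls, 9.55, 9.67, 8.75 and 9.15 in samples labelled deficient and 9.54 in the untreated sample, and the control difference was 0.90 ± 0.17 (SE, 1.86-fold, adjusted p = 0.000226). Its paralog Cox4i2, known from lung and hypoxia, read 4.67, 5.07, 5.04 and 4.71 in control monocytes and 4.99, 4.88, 4.83 and 4.97 in control neutrophils and differed by -0.045 ± 0.11 (SE, adjusted p = 0.736). In samples labelled deficient it read 4.81, 4.77, 4.81 and 4.64 in monocytes and 5.14, 5.24, 5.18 and 4.95 in neutrophils, without overlap. The untreated samples read 4.83 in monocytes and 4.98 in neutrophils.

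Cox6b2, the testis-type form of subunit 6b, had the largest difference in complex IV. It read 7.33, 7.46, 7.56 and 7.17 in control and 7.47 in untreated monocytes, against 5.51, 5.28, 5.31 and 5.38 in control and 5.44 in untreated neutrophils. The deficient-labelled values were 7.36, 7.01, 8.10 and 8.29 in monocytes and 5.41, 4.78, 5.57 and 5.92 in neutrophils, with arrays 3 and 4 above arrays 1 and 2 in both. All neutrophil values were lower than all monocyte values, and the control difference was 2.01 ± 0.24 (SE, 4.03-fold, adjusted p = 1.4e-06). Its common paralog Cox6b1 read 11.43, 11.54, 11.47 and 11.61 in control and 11.50, 11.62, 11.52 and 11.63 in deficient-labelled monocytes, and 11.42, 11.31, 10.97 and 11.16 in control and 11.24, 11.18, 10.98 and 11.26 in deficient-labelled neutrophils. The untreated values were 11.76 and 10.999, and the control difference was 0.30 ± 0.096 (SE, 1.23-fold, adjusted p = 0.0125). Both forms of subunit 6b were thus higher in monocytes on the deposited scale, with Cox6b1 turning to -0.12 after quantile normalization and losing its call without control neutrophil 4.

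For subunit 6a only the muscle form passed. Cox6a1, the common form, read 11.20, 11.40, 11.49 and 11.57 in control and 11.18, 11.25, 11.52 and 11.72 in deficient-labelled monocytes, with 11.34 in the untreated sample. Its neutrophil values were 11.31, 11.32, 11.40 and 11.47 in controls, 11.10, 11.07, 11.67 and 11.45 in samples labelled deficient and 11.23 in the untreated sample. Its groups overlapped throughout, with a 95% interval of the control difference from -0.25 to 0.33. Cox6a2, the muscle form, read 5.40, 5.27, 5.50 and 5.75 in control monocytes and 5.94, 5.77, 5.92 and 6.02 in control neutrophils, without overlap, and was lower in monocytes, with a difference of -0.43 ± 0.13 (SE, 1.35-fold, adjusted p = 0.0091). In the samples labelled deficient it read 5.71, 5.52, 5.38 and 5.47 in monocytes and 5.79, 5.51, 6.09 and 5.83 in neutrophils, which overlap. The control call was lost in set B alone (adjusted p = 0.115). The untreated monocytes read 5.45 and the untreated neutrophils 5.77.

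Both subunits 5 were higher in monocytes on the deposited scale. Cox5a read 9.22, 9.27, 9.41 and 9.33 in control and 9.42, 9.39, 9.58 and 9.78 in deficient-labelled monocytes, against 8.79, 8.91, 8.64 and 8.48 in control and 8.61, 8.76, 8.86 and 8.81 in deficient-labelled neutrophils. Cox5b read 9.85, 9.83, 9.81 and 9.92 in control and 9.90, 9.93, 9.88 and 9.91 in deficient-labelled monocytes, and 9.59, 9.59, 9.31 and 9.43 in control and 9.56, 9.501, 9.55 and 9.69 in deficient-labelled neutrophils. Neither gene's cell types overlapped, and the control differences were 0.60 ± 0.12 (SE, 1.52-fold, adjusted p = 0.000221) and 0.37 ± 0.089 (SE, 1.29-fold, adjusted p = 0.00168). The Cox5b call was lost after quantile normalization, with arrays centred and in set A, with a difference as low as 0.11 (adjusted p up to 0.259), and in the deficient-labelled samples after the same scalings and in set B. The untreated values were 9.33 and 8.45 for Cox5a and 9.92 and 9.42 for Cox5b, in monocytes and neutrophils.

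Of the forms of subunits 7a and 8, only Cox7a2l passed between the control cell types, a call kept under all 21 alternatives. Cox7a2, the common form of 7a, read 9.03, 9.21, 9.20 and 9.46 in control and 9.09, 9.21, 9.69 and 9.95 in deficient-labelled monocytes, and 9.12, 9.11, 9.17 and 9.25 in control and 8.71, 8.91, 9.52 and 9.24 in deficient-labelled neutrophils. Cox7a1, the heart and muscle form, read 4.86 to 5.12 in control monocytes, 4.64 to 5.19 in deficient-labelled monocytes, 4.91 to 5.18 in control neutrophils and 5.05, 4.96, 5.32 and 5.19 in deficient-labelled neutrophils. The control groups overlapped for both, with differences of 0.064 ± 0.18 (SE, adjusted p = 0.777) and -0.0017 ± 0.12 (SE, adjusted p = 0.992). Cox8a, the common form of subunit 8, read 9.52, 9.66, 9.36 and 9.54 in control and 9.48, 9.60, 9.64 and 9.46 in deficient-labelled monocytes. It read 9.37, 9.40, 9.35 and 9.28 in control and 9.16, 9.14, 9.13 and 9.41 in deficient-labelled neutrophils. Its controls overlapped, and the difference of 0.17 ± 0.098 (SE, adjusted p = 0.141) did not pass. Cox8b and Cox8c, the muscle and testis forms, lay close to the 40th percentile, with Cox8b above it on only 4 of 18 arrays. Cox8b read 4.71, 3.95, 4.30 and 4.35 in control monocytes, 4.26, 3.94, 4.05 and 4.13 in deficient-labelled monocytes, 4.09, 4.05, 4.46 and 4.61 in control neutrophils and 4.90, 4.28, 4.34 and 4.31 in deficient-labelled neutrophils. Cox8c read 4.68, 4.33, 4.72 and 4.94 in control monocytes, 4.72, 4.51, 4.37 and 4.16 in deficient-labelled monocytes, 5.12, 4.85, 5.15 and 4.76 in control neutrophils and 4.92, 4.72, 4.88 and 4.77 in deficient-labelled neutrophils. Neither passed in the controls. The untreated monocyte and neutrophil samples read 9.16 and 8.97 for Cox7a2, 4.76 and 4.77 for Cox7a1, 9.66 and 9.16 for Cox8a, 4.09 and 4.20 for Cox8b, and 4.57 and 5.02 for Cox8c.

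**Figure D2:**
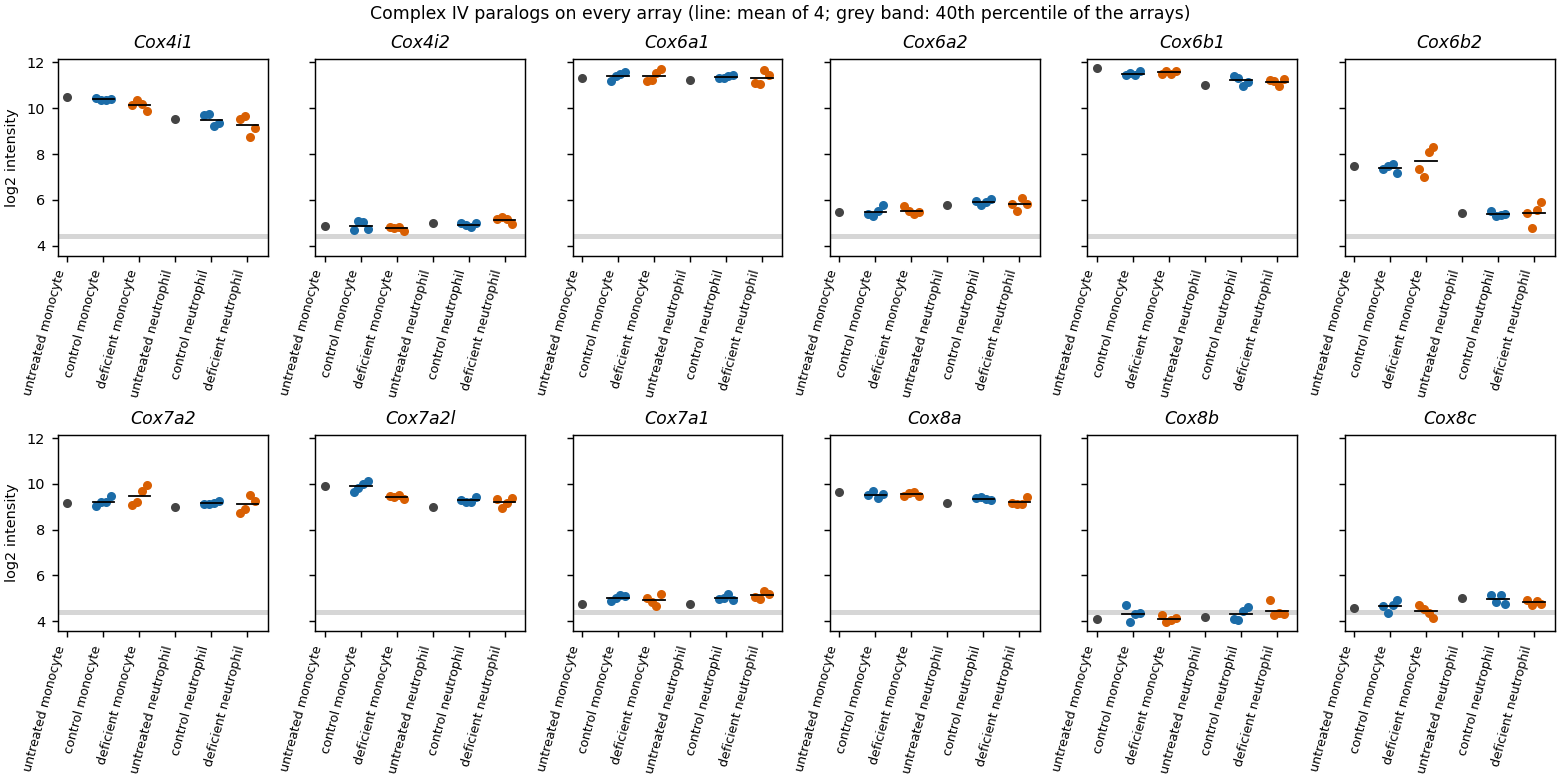
Log2 intensity (vertical axis) of complex IV paralogs on every array, by group; dots are arrays, lines are means of 4 and the grey band is the 40th percentile of the arrays. Cox4i1 and Cox6b2 separate monocytes from neutrophils, Cox6a1 does not, and Cox8b lies at the grey band.

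In complex V, 13 of 17 genes were higher in control monocytes and none was lower (median 0.69). All 5 subunits of the catalytic F1 head passed (median 1.18), with Atp5a1 and Atp5b, which form the catalytic sites, at 1.68 and 1.18. Atp5e, a small subunit of the central stalk, was at 0.41 and turned to -0.10 after quantile normalization. Of the 4 subunits of the peripheral stalk, which keeps the head from turning, 2 passed (Atp5o and Atp5h). Atp5j and Atp5pb, at 0.18 and -0.076, did not. Of the 5 small membrane subunits 3 passed, but each lost the call after quantile normalization: Atp5mpl (adjusted p = 0.0871), Atp5j2, also with arrays centred (highest adjusted p 0.121), and Atp5k, also with arrays centred and in set A (highest 0.429).

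The c ring, which carries the protons, is encoded by Atp5g1, Atp5g2 and Atp5g3, whose mature proteins are the same and whose import sequences differ. All 3 were higher in monocytes. Atp5g2 read 10.14, 10.14, 9.31 and 9.27 in control, 9.81, 9.99, 9.13 and 9.35 in deficient-labelled and 10.33 in untreated monocytes. In neutrophils it read 7.59, 7.96, 6.30 and 6.75 in controls, 7.49, 7.65, 6.40 and 6.89 in samples labelled deficient and 7.70 in the untreated sample. Arrays of set A were the higher ones in every group, yet no neutrophil array reached any monocyte array. The control difference was 2.56 ± 0.34 (SE, 5.91-fold, adjusted p = 4.18e-06), with 2.36 in set A and 2.77 in set B. Atp5g1 read 8.78, 8.80, 8.36 and 8.59 in control, 8.31, 8.62, 8.79 and 9.02 in deficient-labelled and 8.87 in untreated monocytes. Its neutrophil values were 7.05, 7.22, 6.49 and 6.57 in controls, 6.72, 6.74, 6.25 and 7.11 in samples labelled deficient and 6.86 in the untreated sample, and the controls differed by 1.80 ± 0.20 (SE, 3.48-fold, adjusted p = 3.98e-07). Atp5g3 differed least of the 3. It read 9.57, 9.57, 9.89 and 9.89 in control, 9.57, 9.70, 9.93 and 9.98 in deficient-labelled and 9.72 in untreated monocytes. In neutrophils it read 9.08, 8.99, 8.78 and 8.98 in controls, 8.59, 8.47, 8.77 and 8.91 in samples labelled deficient and 8.70 in the untreated sample. Its cell types did not overlap either, and the control difference was 0.78 ± 0.13 (SE, 1.71-fold, adjusted p = 5.12e-05).

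Monocytes and neutrophils labelled Zeb2-deficient gave a comparison that shares no array with the controls. The spread of each gene came from the same fit over all 18 arrays in both comparisons. There 58 of 82 genes were higher in monocytes and 3 were lower, with 62.1% of all tested genes passing (30% higher and 32.1% lower). The median was 0.57, against -0.090 for all genes. Of the genes higher in control monocytes 53 were also higher here, 1 gene was lower in both comparisons (Ndufa4l2), 3 passed in the controls only (Cox7a2l, Cox6a2 and Ndufv3), 7 passed in the deficient-labelled samples only (Atp5j, Cox4i2, Cox8a, Cox8c, Ndufa1, Ndufs5 and Sdhd), and none passed in opposite directions. The differences of the 82 genes in the 2 comparisons correlated at r = 0.95 (Spearman 0.95). This is a description without a test, since within a comparison all genes are read from the same arrays. Atp5g2 (2.46), Cox6b2 (2.27), Atp5g1 (1.98), Ndufc2 (1.92), Ndufa9 (1.75), Sdhc (1.51), Uqcr11 (1.07) and Cox7b (1.07) led their complexes. Sdhd, which did not pass in the controls, was higher in deficient-labelled monocytes by 0.53 ± 0.15 (SE, 1.45-fold, adjusted p = 0.00663), and Cox4i2 and Cox8c were lower, with differences of -0.37 ± 0.11 (SE, adjusted p = 0.00745) and -0.38 ± 0.14 (SE, adjusted p = 0.0241). Each of these calls depended on the setting: Sdhd was lost after quantile normalization, with arrays centred and in set A (adjusted p up to 0.153), and Cox4i2 in either array set alone (up to 0.125). Cox8c was lost under 6 alternatives, including without deficient-labelled neutrophil 1 or 3 or monocyte 3 or 4 (up to 0.372). Ndufa1 and Ndufs5 were each lost under 8, including without deficient-labelled neutrophil 1 or monocyte 3 or 4, and without neutrophil 4 for Ndufa1 and neutrophil 2 for Ndufs5. Cox8a was lost with arrays centred and in set B. Of the genes called in both comparisons, Sdhb (9 alternatives), Ndufa2 (7), Ndufs7 (7) and Cyc1 (5) lost the deficient-labelled call most often. All 4 lost it without deficient-labelled monocyte 3. Sdhb and Ndufs7 also lost it without monocyte 2 or neutrophil 2 or 4, and Ndufa2 and Cyc1 without monocyte 4. Sdhb and Ndufa2 lost it without neutrophil 1, and Ndufa2 also without neutrophil 2. The median became 0.30 with arrays centred and 0.35 after quantile normalization, and under the latter Cox6b1 and Cox6c changed sign (-0.0076 and -0.063).

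Zeb2 genotype was then compared within each cell type. In monocytes, 1 of 82 subunit genes differed, against 7.54% of all tested genes (5.11% higher and 2.44% lower in the samples labelled deficient). The median change was 0.0048, against -0.034 over all genes. Of the subunit genes 42 lay above 0 and 40 below, against 5706 and 7681 of all 13387 tested genes. At an unadjusted p under 0.05 there were 3 genes (3.66%), against 20.2% of all genes: Cox7a2l, Ndufa10 with -0.35 ± 0.14 (SE, adjusted p = 0.159) and Ndufb7 with 0.32 ± 0.14 (SE, adjusted p = 0.228). The intervals show how far this reaches. The bounds of the 95% interval lay a median of 0.30 and at most 0.72 from the estimate, and for 71 of the 82 genes it lay within a 1.5-fold change in either direction.

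The gene that passed was Cox7a2l, whose product is known as an assembly factor that joins complexes III and IV into supercomplexes. Whether the product does so in these mice was not tested. Cox7a2l read 9.63, 9.84, 10.01 and 10.10 in control monocytes 1, 2, 4 and 5 and 9.47, 9.43, 9.51 and 9.34 in deficient-labelled monocytes 1 to 4. All controls lay above all samples labelled deficient, from a mean of 9.90 ± 0.21 (SD, n = 4) to 9.44 ± 0.07 (SD, n = 4). It fell by 0.46 ± 0.12 (SE, adjusted p = 0.0253, limma), and a second probe set went from 9.04 to 8.59. Neutrophils read 9.27, 9.20, 9.19 and 9.44 in controls and 9.32, 8.93, 9.15 and 9.38 in samples labelled deficient, with overlap, and the untreated samples 9.89 and 8.996. Array set A alone gave a monocyte change of -0.28 (adjusted p = 0.567) and array set B -0.63 (adjusted p = 0.0101). Of 20 alternatives 7 lost the limma call, and the array set as a block kept it (-0.46, adjusted p = 0.00894). The limma call was lost with only the arrays compared in the fit (adjusted p = 0.0612) and after quantile normalization (-0.38, adjusted p = 0.0838). It was also lost with the title number as a block (-0.40, adjusted p = 0.059), and without control monocyte 4, control monocyte 5 or deficient-labelled monocyte 4 (adjusted p from 0.0742 to 0.0916).

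Marker genes of other cells moved in the same monocyte samples. Neutrophil markers were higher in 7 of 8 (median 3.22) and promyelocyte markers in 5 of 5 (median 2.67) in the samples labelled deficient, and 3 of 7 monocyte markers were lower (median -0.78). The mean level of the 8 neutrophil markers ran from 5.94 to 7.39 in control and from 9.33 to 10.3 in deficient-labelled monocytes, against 11.9 to 12.1 in control neutrophils. That of the 5 promyelocyte markers ran from 6.496 to 9.05 and from 8.87 to 11.2. Their part in the subunit values was not tested.

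**Figure D3:**
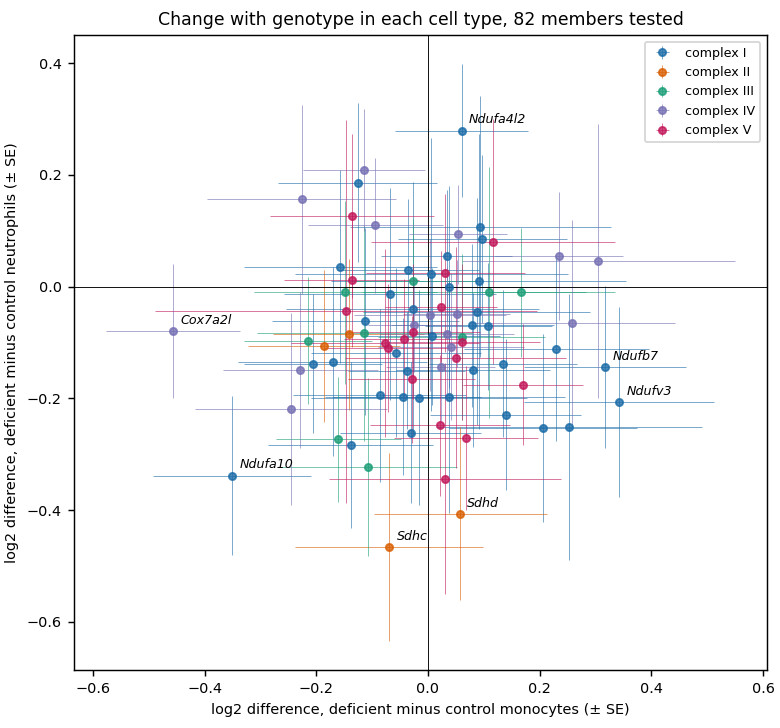
Change between samples labelled deficient and controls in monocytes (horizontal axis) and neutrophils (vertical axis), log2, for the 82 tested subunit genes; points are fitted differences of 4 against 4 arrays and bars standard errors. Cox7a2l lies at -0.46 in monocytes and Sdhc at -0.47 in neutrophils.

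In neutrophils none of the 82 subunit genes passed the test (limma), against 0.12% of all tested genes. At an unadjusted p under 0.05 there were 6 genes (7.32%, against 5.1% of all genes), 1 higher and 5 lower. The median change was -0.087, against -0.0099 over all genes, and 62 of 82 values lay below 0, against 7037 of all 13387 tested genes. Within array set A the median was -0.28 and within set B 0.095, so the sign differed between the sets. The succinate dehydrogenase anchors had the lowest values. Sdhc read 7.28, 7.83, 7.18 and 7.41 in control and 7.24, 7.09, 6.67 and 6.83 in deficient-labelled neutrophils, a difference of -0.47 ± 0.17 (SE, adjusted p = 0.806), and 7.43 in the untreated sample. Sdhd read 7.22, 7.11, 6.82 and 7.005 in control and 6.88, 6.89, 6.29 and 6.48 in deficient-labelled neutrophils, a difference of -0.41 ± 0.15 (SE, adjusted p = 0.859), and 7.02 in the untreated sample. Pooled over the array sets the groups overlapped for each gene, but within each set both deficient-labelled arrays lay below both controls for Sdhc and for Sdhd. This held in both sets for 6 of 82 subunit genes (7.32%, against 4.57% of all genes; the others were Atp5o, Cox4i1, Ndufa10 and Ndufv3), and the reverse for 0 (against 3.88%). In monocytes labelled deficient Sdhc read 8.51, 8.79, 8.22 and 8.35 and Sdhd 7.33, 7.13, 6.99 and 7.21, with changes of -0.069 ± 0.17 (SE, adjusted p = 0.883) and 0.058 ± 0.15 (SE, adjusted p = 0.894). The untreated monocytes read 8.81 for Sdhc and 7.59 for Sdhd. In the same neutrophils the mean level of the 4 megakaryocyte markers ran from 4.72 to 6.72 in controls and from 4.99 to 7.46 in samples labelled deficient, and that of the promyelocyte markers from 4.76 to 5.10 and from 4.77 to 6.499. None of either list passed (medians 0.61 and 0.65), and their part in the subunit values was not tested. For 70 of the 82 genes the 95% interval of the neutrophil change lay within a 1.5-fold change.

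The change with genotype was not shown to differ between the cell types for any subunit gene, with 0 of 82 passing (limma) against 2.68% of all tested genes. At an unadjusted p under 0.05 there were 6 genes (7.32%, against 13.5% of all genes), 4 with a higher and 2 with a lower change in monocytes. The smallest adjusted p was 0.316, for Ndufv3 (0.55 ± 0.24 SE). It read 8.01, 7.90, 8.66 and 8.76 in deficient-labelled monocytes and 8.21, 8.08, 8.36 and 8.38 in deficient-labelled neutrophils, with 7.92 and 8.02 in the untreated samples. The median difference was 0.071, with 0.22 in array set A and -0.063 in set B.

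The untreated samples, 1 of each cell type, have no replicate and were set beside the poly(I:C) controls without a test. In monocytes the untreated value lay above all 4 controls for 20 of 82 genes (24.4%, against 22.6% of all genes) and below all 4 for 6 (7.32%, against 15.4%), with a median difference of 0.048. In neutrophils it lay below all 4 controls for 41 genes (50%, against 18.6% of all genes) and above all 4 for 3 (3.66%, against 18.4%), with a median of -0.20. None of the 4 complex II genes lay outside the controls in neutrophils. The widest gaps in neutrophils were Ndufc1 (6.40 against a control mean of 7.17), Ndufs6 (7.44 against 8.01) and Ndufa6 (6.72 against 7.28), all complex I. Atp5g2 was the widest in the other direction in both cell types, at 10.33 against a control mean of 9.72 in monocytes and 7.70 against 7.15 in neutrophils. Both untreated samples carry title number 3 and were placed in array set A here, a placing that the labels do not state and that was not tested. Atp5g2 was lower in set B. The set A controls alone read 10.14 and 10.14 in monocytes and 7.59 and 7.96 in neutrophils, so the untreated neutrophil value lay within their range.

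**Figure D4:**
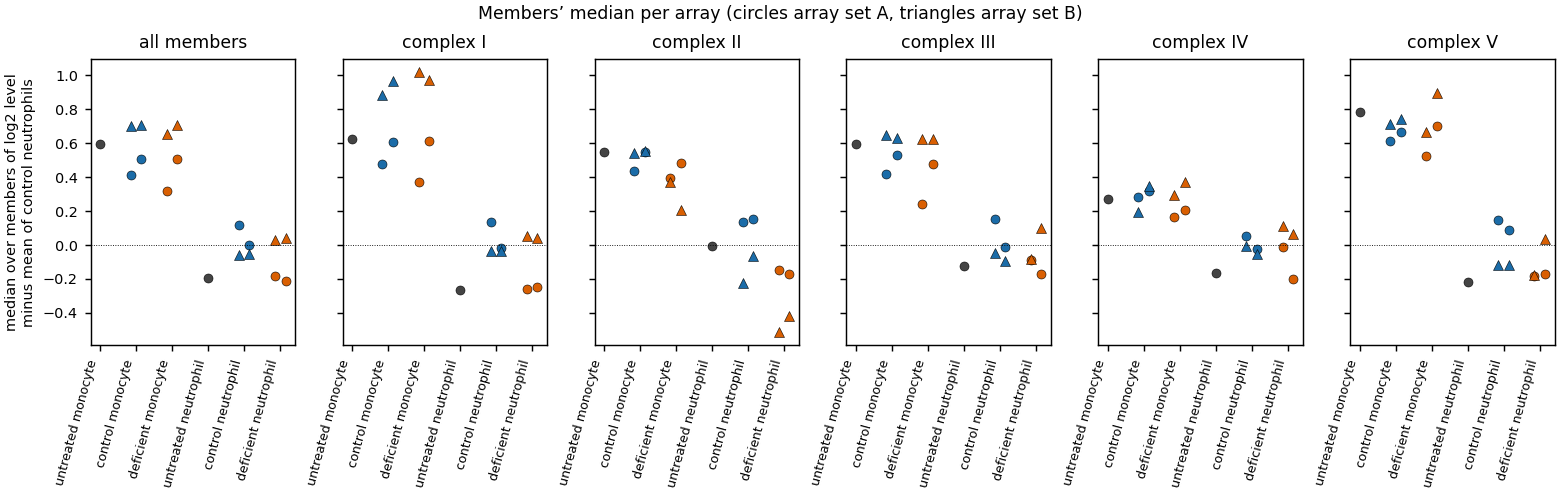
Median over subunit genes of the log2 level minus the mean of control neutrophils (vertical axis), for each array, all genes and by complex. Circles are array set A, where the untreated samples were placed, and triangles set B. Monocyte arrays lie between 0.32 and 0.71 over all subunit genes and neutrophil arrays between -0.21 and 0.12.

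The medians per array show the cell types apart on all 18 arrays. The lowest monocyte array, deficient-labelled monocyte 1, lay 0.32 above the mean of control neutrophils, and the highest neutrophil array, control neutrophil 1, 0.12 above it. Within groups the array sets stood apart for several complexes. In monocytes control arrays 1 and 2 had complex I medians of 0.48 and 0.61 and arrays 4 and 5 of 0.89 and 0.97, and the deficient-labelled arrays of set A 0.37 and 0.61 and of set B 1.02 and 0.98. In deficient-labelled neutrophils complex I medians were -0.26 and -0.25 in set A against 0.055 and 0.043 in set B. Complex II went the other way in neutrophils, with 0.14 and 0.15 in set A against -0.22 and -0.063 in set B among controls, and -0.15 and -0.17 against -0.52 and -0.42 in samples labelled deficient.

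Gene by gene, 16 of the 82 were above their set A mean in set B in all 4 groups (19.5%, against 11.6% of all genes), and 12 were lower in all 4 (14.6%, against 18%). The former were mostly complex I genes, 11 of its 36, led by Ndufv2 (mean gap 0.54) and Ndufa6 (0.53). The latter held 3 of the 4 complex II genes and 5 of 17 of complex V, with the widest gap for Atp5g2 (-0.92), then Uqcrq of complex III (-0.44) and Atp5b (-0.43). Promyelocyte markers differed between the sets too: their mean level was 6.784 and 6.496 in control monocytes 1 and 2 and 9.05 and 8.18 in control monocytes 4 and 5. The 4 megakaryocyte markers had mean levels of 4.21 and 4.20 in the set A and 5.84 and 5.18 in the set B control monocytes, and of 4.60 and 4.65 against 5.52 and 5.52 in those labelled deficient. In neutrophils labelled deficient they read 5.99 and 4.99 against 7.04 and 7.46, and in control neutrophils 6.72 and 4.72 against 5.81 and 5.36, with the sets overlapping. The part of either list in the gaps was not tested. Each set held 2 arrays of each group of 4, but the gaps were not alike in all groups. The median of set B minus set A was 0.16 in control and 0.25 in deficient-labelled monocytes, -0.0998 in control neutrophils and 0.16 in those labelled deficient.

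**Figure D5:**
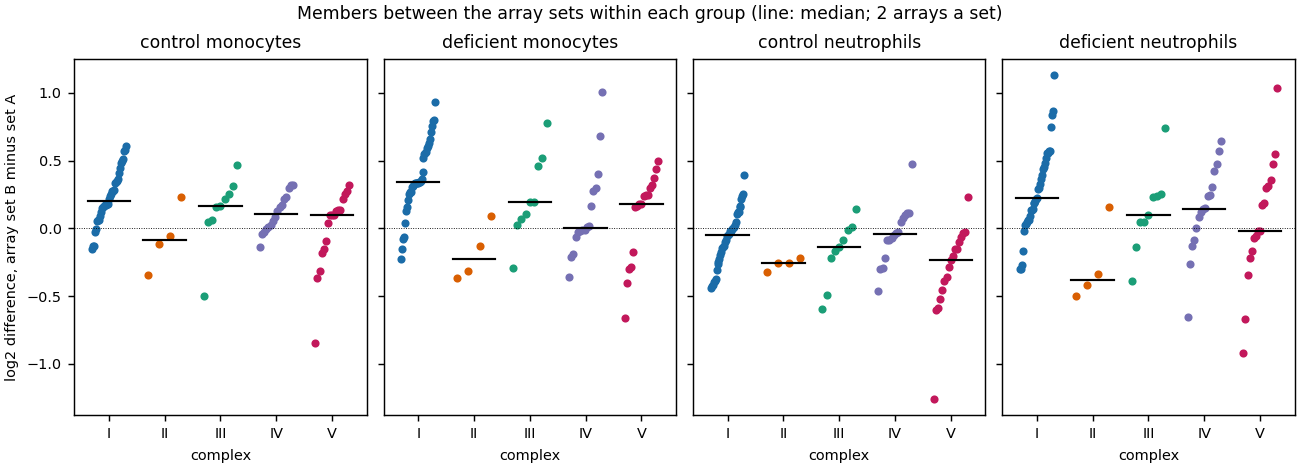
Log2 difference between array set B and array set A (vertical axis) within each group of 4 arrays, for each tested subunit gene by complex; lines are medians of the genes. Complex I medians lie above 0 in 3 of 4 groups and complex II medians below 0 in all 4, and Atp5g2 is the lowest point of complex V.

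Other mitochondrial genes were taken from lists by function, beside which all tested genes gave 29.9% higher and 28.7% lower in control monocytes and a median of -0.077. Of 77 mitochondrial ribosomal protein genes, which build the machinery that translates the mitochondrially encoded subunits, 63 were higher in control monocytes and 2 lower (median 0.85), with Mrpl52 at 3.43 ± 0.26 (SE, 10.8-fold, adjusted p = 2.94e-09) and Mrpl42 at 3.06 the highest. The TCA cycle and pyruvate dehydrogenase list, which supplies the electrons, had 13 of 16 higher and 1 lower (median 0.67), led by the succinyl-CoA ligase subunit Suclg2 at 2.63 ± 0.15 (SE, 6.19-fold, adjusted p = 1.24e-10) and fumarase, Fh1, at 2.61. Of 13 genes for electron carriers and ATP export 9 were higher and 2 lower (median 0.75). Among them was the ADP/ATP carrier Slc25a4, with 4.50 ± 0.19 (SE, 22.7-fold, adjusted p = 1.34e-12), and the outer membrane channel Vdac3 (1.67).

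Assembly factors gave 18 higher and 2 lower of 37 (median 0.36), with Ndufaf4 of complex I (2.44) and Uqcc2 of complex III (2.42) at the top. Of 16 nuclear regulators 6 were higher and 3 lower (median 0.25), shares close to those of all genes. The highest were the coactivator Pprc1 at 1.59 ± 0.17 (SE, 3.02-fold, adjusted p = 3.45e-07) and Tfam, which packages mitochondrial DNA and starts its transcription, at 1.56 ± 0.15 (SE, 2.94-fold, adjusted p = 5.63e-08). NRF1 and GABPA, the factors whose letters were searched, did not pass: Nrf1 differed by 0.030 ± 0.11 (SE, adjusted p = 0.818) and Gabpa by 0.25 ± 0.12 (SE, adjusted p = 0.0815). For the 13 mitochondrially encoded subunits no symbol matched, and they were not analysed here.

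With genotype few listed genes passed. In monocytes labelled deficient the assembly factor Coa7 fell by 0.49 (adjusted p = 0.0227, limma), the mitochondrial polymerase subunit Polg2 fell by 0.54 (adjusted p = 0.0214) and Suclg2 fell by 0.54 (adjusted p = 0.0414). Slc25a4 fell by 0.79 (adjusted p = 0.0125), and Gpd2, the mitochondrial glycerol 3-phosphate dehydrogenase that passes electrons to ubiquinone, rose by 1.18 ± 0.16 (SE, 2.27-fold, adjusted p = 9.53e-05). No ribosomal protein gene of the mitochondrion passed in either cell type, and no listed gene passed in neutrophils, where 0.12% of all tested genes did. That is near what all genes gave. In monocytes the share over all tested genes was 7.54%, against 0 of 77 ribosomal protein genes, 1 of 37 assembly factors, 1 of 16 regulators, 1 of 16 TCA genes and 2 of 13 carrier genes. For Slc25a4 and Gpd2 the change also differed between the cell types, by -1.13 ± 0.26 (SE, adjusted p = 0.0235) and 1.13 ± 0.22 (SE, adjusted p = 0.00717). In the deficient-labelled samples monocytes were higher in 65 ribosomal protein genes (2 lower), 13 TCA genes (0 lower), 9 carrier genes (1 lower), 20 assembly factors (1 lower) and 7 regulators (3 lower), against 30% higher and 32.1% lower over all tested genes.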

How the data were processed

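Total RNA of sorted cells was made into biotin-labelled target and hybridised to the Mouse Gene 1.0 ST array of Affymetrix, per the labels' protocols and the annotation header. The authors deposited log2 intensities, and the submitters' processing notes name RMA. The sources used here do not give its software or version.

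Of 30177 probe sets, 21789 had 1 symbol, 1621 several and 6767 none. The first kind named 19938 genes. A gene was tested (13387 genes) where at least 4 arrays read it above their own 40th percentile. A group-means model over all 18 arrays was fitted with limma 3.58.1 in R 4.3.3, with a variance trend, 12 residual degrees of freedom, and p-values adjusted by Benjamini-Hochberg (threshold 0.05). The fit was also run on simulated data that took each gene's spread from these arrays and held no array sets. Of 100 genes changed by 0.5 log2 units in deficient-labelled monocytes it recovered 41%. Of 100 changed by 1 it recovered 89%, with 9 false calls in all. The number of arrays limits the precision.

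The members, gene lists, array sets and naming rule were chosen with earlier results of these data known, and the grouping of subunits by role was made after their values were seen. Array values are given for the 2 members with the largest change per complex and comparison and for named paralogs, and up to 2 genes are named per pathway list. Nrf1, Gabpa, Ndufv3, Ndufa10, Ndufb7 and the members named beside counts or gaps were chosen after seeing values.

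Same-numbered control and deficient arrays correlated in their deviations at 0.183 to 0.428 in 6 pairs, with other pairs of the same array set at 0.127 to 0.348 and pairs across sets at -0.344 to -0.085. Same-numbered monocyte and neutrophil arrays correlated at 0.0591 to 0.259 in 8 pairs. The labels state no pairing. Alternatives changed the arrays in the fit, filter, normalization, probe set, variance model, array weights, array set, block and replicates.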

Additional observations from a re-analysis of the deposited data

Results flagged for a closer look

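In 116 sets of 4 arrays (named members by group), 2 held an array far from the other 3, where chance gives about 1 in 20 (by Dixon's criterion for 4 samples). Cox8a, the common form of complex IV subunit 8, read 9.406 in deficient-labelled neutrophil 4, against 9.127 to 9.163 in the other 3. Cox8b, its muscle paralog, read 4.901 in deficient-labelled neutrophil 1, against 4.276 to 4.345 in the other 3, close to the 40th percentile of the arrays. The cause of either was not tested.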

How the results depend on the processing

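Between control cell types, the 57 members that passed became 55 to 56 with any 1 array left out (median difference 0.550 to 0.630). The share of all tested genes that passed was then 52.5% to 55.6%, against 58.6% in the main fit. Of the 57 members, 39 passed under every alternative run. The median of 0.591 became 0.451 after quantile normalization, 0.333 with arrays centred, 0.439 in array set A and 0.725 in set B. Quantile normalization turned Atp5e to -0.104, Cox6b1 to -0.119 and Cox6c to -0.0994. Between deficient-labelled cell types, 61 became 54 to 64 with 1 array left out (median 0.548 to 0.681), where 56.4% to 60.3% of all tested genes passed. Of the 61, 37 passed under every alternative. There the median was 0.354 after quantile normalization and 0.298 centred, with Cox6b1 at -0.00755 and Cox6c at -0.0625 under the former. In monocytes the count by genotype, 1, was 0 to 1 with 1 array left out (median -0.0620 to 0.0436). It was 0 with only the arrays compared, after quantile normalization, in set A and with the replicate block. All tested genes gave 3.73%, 7.22%, 1.61% and 6.57% in these settings, in that order. In set B it was 5 of 82 (4 higher, 1 lower), where 12.9% of all tested genes passed. In neutrophils the count stayed 0 with each array left out (median -0.129 to -0.0288), with a median of -0.278 within set A and 0.095 within set B. The median difference between cell types in the change was 0.217 in set A, -0.0629 in set B and 0.0238 to 0.142 with 1 array left out, with a count of 0. The replicate block over title numbers gave 59 and 66 members between control and deficient-labelled cell types (60.8% and 64.1% of all tested genes). By genotype it gave 0 in both cell types, so the only such call, that of Cox7a2l in monocytes, was lost. In this block number 5 held only controls and number 3 no poly(I:C) control. With the array set as a block the Cox7a2l call was kept (adjusted p = 0.00894, limma). The causes were not tested. Set A and set B alone hold 2 arrays a group. Values at or under the 40th percentile, such as those of Ndufa4l2 and Cox8b, limit what can be read from dim members.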
